A study of Mus musculus with 46 samples.

Results

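Liver gene expression on a high-fat diet with fermentable fiber was compared with that on a low-fat diet. The samples were 18 of the 46 arrays of the series, chosen by their tissue and diet labels: 6 livers each of HFD + inulin, HFD + inul PB and LFD. The mean of both fiber diets was set against LFD in one model, and 6 liver HFD arrays entered the same model as a further diet. The mice were male C57BL/6, an inbred strain without an engineered allele, 12 weeks old at the start and 20 weeks old after 8 weeks on the diet. HFD gave 45% of its energy as fat and LFD 10%. In HFD + inulin, 10% of the diet by weight, taken from corn starch and cellulose, was replaced by inulin, a plant polymer of fructose. In HFD + inul PB the same share was replaced by equal parts of inulin esterified with propionate and inulin esterified with butyrate. LFD also held more sucrose and more corn starch than the fiber diets. It therefore differed from them in fat, sugar, starch and fiber, and these cannot be told apart in this contrast. The livers are whole tissue, so fewer cells of a type and less RNA per cell cannot be told apart either.

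The liver turns dietary carbohydrate into fatty acids by de novo lipogenesis. Acetyl-CoA carboxylases and fatty acid synthase build the chain, elongases lengthen it, stearoyl-CoA desaturases insert a double bond, and glucose-6-phosphate dehydrogenase and malic enzyme supply the NADPH. The pathway is known to be switched on by insulin through SREBP-1c and by sugar through ChREBP, and to be held back by dietary fat. Inulin is not digested by mouse enzymes. Gut bacteria ferment it to the short-chain fatty acids acetate, propionate and butyrate, which reach the liver through the portal vein, and the esters carry propionate and butyrate to the large bowel directly.

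Each array measured one liver RNA sample in one colour. On the 24 liver arrays between 46.4% and 51.7% of spots were well above background, no spot was saturated, and 2 arrays correlated with r between 0.9658 and 0.9879. All 10 hepatocyte markers were well above background on all 24 arrays, and the log2 of their summed signal lay between 20.84 and 21.48. Some livers carried markers of neighbouring tissue. All 7 pancreatic acinar markers were above background on LFD replicate 4, HFD + inulin replicate 6 and HFD + inul PB replicate 4, and all 4 skeletal muscle markers on HFD + inul PB replicate 4. The log2 summed signal of the acinar markers was 17.04, 11.89 and 12.51 on these arrays, against diet medians of 9.3 to 9.48, and that of the muscle markers was 15.15 against 5.71 to 5.93. At least 4 of 5 adipocyte markers were above background on LFD replicates 3 and 4, HFD + inulin replicate 4, HFD + inul PB replicate 4 and HFD replicate 3. Calls that were lost without these arrays are given beside the genes.

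By the criteria of the study, a difference of more than 1.5-fold with an unadjusted limma P below 0.01, 431 of 55681 probes (0.774%) separated the fiber diets from LFD. Of these 133 were higher and 298 lower. The number was 136 with normexp background correction, 179 with none and 177 on the values that the authors processed. Scaling to the 75th percentile instead gave 172 higher and 245 lower. After Benjamini-Hochberg adjustment 33 probes passed at 0.05, or 0.0593%, 12 higher and 21 lower. Without the arrays with acinar or muscle markers the counts were 360 and 9. Leaving out a single array gave between 393 and 514 probes by fold and P, and between 7, without LFD replicate 6, and 94 after adjustment, without HFD + inul PB replicate 3. Taken as 20887 genes with 1 probe each, the brightest, 67 genes (0.321%) were higher and 128 (0.613%) lower, and the median log2 difference over all genes was 0.0037. Complete separation of the 12 fiber arrays from the 6 LFD arrays was rare. It occurred upward in 4 genes (0.0192%) and downward in 5 (0.0239%).

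Genes of de novo lipogenesis were lower on the fiber diets than on LFD. Of 20 measured members of this list, 8 fell and none rose, against 0.613% of all genes that fell, and the median log2 difference of the list was -0.51. The 8 were the desaturases Scd1 and Scd2, the elongases Elovl5 and Elovl6, the carboxylases Acaca and Acacb, malic enzyme Me1 and the lipid droplet protein Pnpla3. HFD without added fiber also lay below LFD in these 8 genes, so the fall was not particular to the fiber diets. Its differences from LFD were -0.99 for Scd1, -0.88 for Scd2, -0.7 for Elovl5 and -1.34 for Elovl6. They were -1.06 for Acaca, -1.63 for Acacb, -1.04 for Me1 and -1.88 for Pnpla3. The remaining 12 members did not pass. Among them, Fasn, fatty acid synthase, had a log2 difference of -0.81 with a limma P of 0.118, Acly, ATP citrate lyase, of -0.59 with a P of 0.099, and Srebf1, the gene of SREBP-1c, of 0.27 with a P of 0.394.

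Scd1, which makes oleate from stearate, had normalised log2 signals of 16.82 to 17.56 on LFD with a median of 17.21. It lay between 15.35 and 16.61 on HFD + inulin, median 16.08, and between 15.25 and 16.84 on HFD + inul PB, median 15.81. Of the 12 fiber arrays, 11 lay below every LFD array. The fall was 2.3-fold, a log2 difference of -1.2 ± 0.25 (SE) with a limma P of 7.44e-05 and an adjusted P of 0.0767, and the exact permutation P was 0.000215. Scd3, a paralog, fell on 1 probe. Its LFD arrays ran from 10.89 to 12.12 with a median of 11.79, those of HFD + inulin from 9.07 to 10.48 with a median of 10.06 and those of HFD + inul PB from 9.03 to 10.85 with a median of 9.68. No fiber array reached the lowest LFD array. The difference was -1.84 ± 0.33, 3.57-fold, with an adjusted limma P of 0.0414. This is the brightest of 3 Scd3 probes, and the others had differences of -0.21 with a P of 0.0267 and 0.46 with a P of 0.365, so the fall was not shared by the probes. The Scd genes are close in sequence, so cross-hybridisation between their probes was not tested.

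Pnpla3, known for a human variant linked to fatty liver, had a dim probe. It was well above background on the 6 LFD arrays, between 5.9 and 9.9 with a median of 8.21, and on 4 of 6 arrays of each fiber diet. The fiber arrays ran from 3.73 to 7.01 on HFD + inulin and from 3 to 7.87 on HFD + inul PB, with medians of 5.87 and 5.19, and overlapped with LFD. The difference was -2.59 ± 0.76, 6.01-fold, with a limma P of 0.0026, and -1.5 with normexp correction. A second probe had -3.25. The call missed the limit without LFD replicate 5 or 6, with P of 0.0112 and 0.0111.

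The carboxylases, which make malonyl-CoA, fell by 1.78-fold for Acaca and 2.38-fold for Acacb. Acaca lay between 13.52 and 14.87 on LFD, median 14.65, and its fiber medians were 13.62 and 13.51. Acacb lay between 11.91 and 13.97 on LFD, median 13.63, and its fiber medians were 12.39 and 12.02. In both genes the lowest LFD array lay within the range of the fiber arrays. Elovl6, which elongates palmitate, had a log2 difference of -1.13 ± 0.37, Elovl5, an elongase of polyunsaturated fatty acids, of -0.77 ± 0.22, and Me1 of -1 ± 0.32. Limma P of these 5 genes ran from 0.00245 to 0.00611, and none had an adjusted P under 0.05. Acaca missed the limit without LFD replicate 6, with a P of 0.0104. Acacb and Me1 missed it without LFD replicate 1, 4, 5 or 6, with P of up to 0.0165 and 0.015. Elovl6 missed it without those arrays, HFD + inulin replicate 1 or 4 or HFD + inul PB replicate 3, with P of up to 0.0194. Scd2 had a difference of -0.89 ± 0.29, with one LFD array, replicate 4, at 11.43 and the rest between 8.45 and 9.35. Without that array it was -0.48 with a P of 0.0123, and the P was 0.0103 without LFD replicate 3 or HFD + inul PB replicate 3.

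The number of lipogenic genes past the limits was 8 with 75th percentile or quantile scaling, with the authors' processed values and with slide as a block. It was 5 without LFD replicate 1, 4 without LFD replicate 4 or 5, and 3 without LFD replicate 6. Without the 3 arrays with acinar or muscle markers it was 1, that of Scd1, and 3 when the arrays with adipocyte markers were left out too. In that first set Acaca had a difference of -0.72 with a P of 0.0179, Acacb of -1.14 with 0.0218, Elovl6 of -1.09 with 0.0223, Me1 of -0.84 with 0.0314, Elovl5 of -0.68 with 0.0114 and Pnpla3 of -2.53 with 0.011, while Scd2, at -0.53, was under the fold limit. Without the 4 arrays numbered 1, which stand apart in clock genes, the number was 1 as well.

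**Figure D1:**
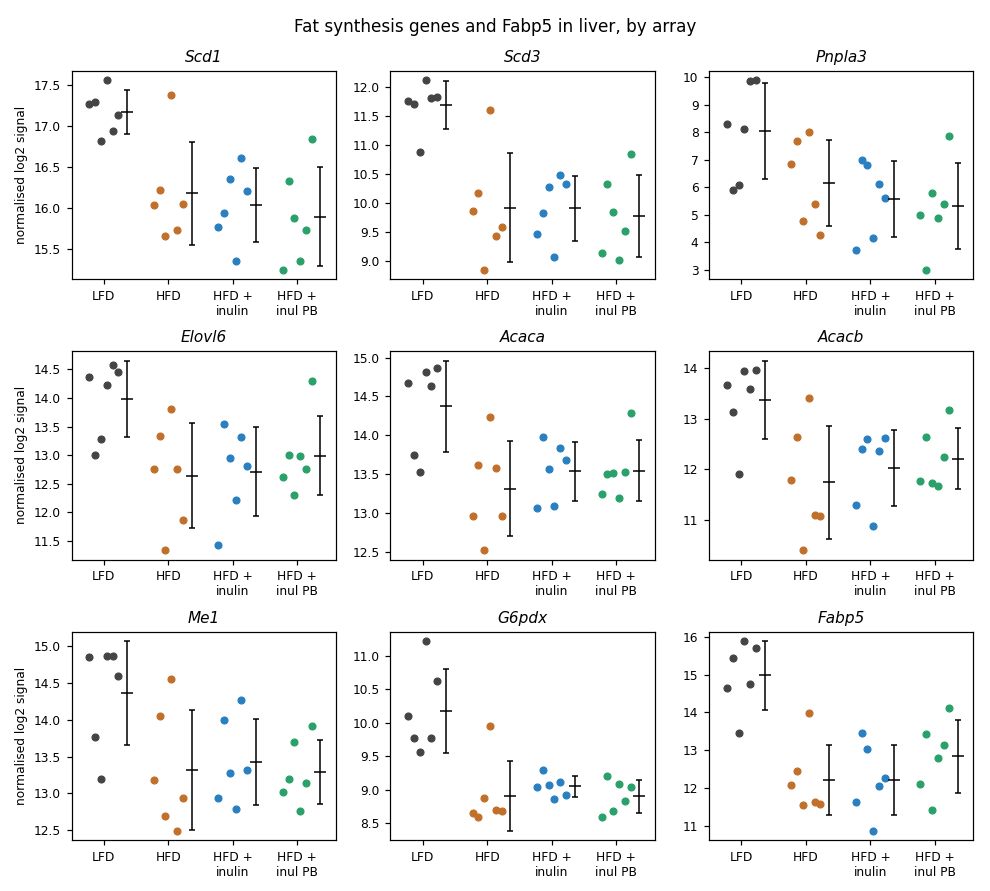
Normalised log2 signal (vertical axes) of 9 genes of fat synthesis and handling in each liver array, by diet, with the mean and SD of the 6 arrays at the right of each group. In Scd3 and G6pdx the 12 fiber arrays lie below the 6 LFD arrays. In the other panels the ranges overlap, least in Scd1 and widely in Acacb and Me1.

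G6pdx, the entry enzyme of the pentose phosphate pathway and a source of NADPH, passed with adjustment in the fit of all arrays. Its signals were 9.57 to 11.22 on LFD with a median of 9.94, 8.86 to 9.3 on HFD + inulin with a median of 9.05, and 8.59 to 9.21 on HFD + inul PB with a median of 8.94. The groups did not overlap. The difference was -1.2 ± 0.21, 2.29-fold, with an adjusted limma P of 0.0354 and an exact permutation P of 5.39e-05, the smallest that 12 arrays against 6 allow. On the 3 slides, each of which held 2 arrays of every diet, it was -0.9, -1.47 and -1.21. In its list, glycolysis, fructose and gluconeogenesis, 2 of 18 genes fell and 1 rose, with a median of -0.12. These counts stand against 0.613% of all genes lower and 0.321% higher. Pklr, liver pyruvate kinase, fell by 0.67 on the log2 scale with a limma P of 0.00404, and P of 0.0172 and 0.0178 without LFD replicate 5 or 6. Txnip, a thioredoxin inhibitor induced by glucose, rose by 0.71 with a P of 0.00676. It missed the limit in 8 of the 24 fits that left out 1 array, with P up to 0.0327 without LFD replicate 5, and its difference was -0.15 on one slide and 0.94 and 1.34 on the others. Neither passed without the arrays that carried acinar or muscle markers, with P of 0.0148 for Pklr and 0.0181 for Txnip.

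Fabp5, a fatty acid carrier of skin, fat and macrophages, fell 5.44-fold. LFD arrays lay between 13.45 and 15.87 with a median of 15.1, HFD + inulin arrays between 10.89 and 13.45 with a median of 12.16, and HFD + inul PB arrays between 11.44 and 14.12 with a median of 12.98. Of the 12 fiber arrays, 10 were below every LFD array. The difference was -2.44 ± 0.45 with an adjusted limma P of 0.046, and within slides it was -2.39, -2.61 and -2.33. Among 21 genes of lipid droplets, fat uptake and export, Vldlr, a receptor for triglyceride-rich lipoproteins, rose and Lpl, lipoprotein lipase, fell, and the list median was 0.05. One gene each way stands against 0.321% of all genes higher and 0.613% lower. Vldlr had a difference of 0.7 with a P of 0.00449 and Lpl of -0.65 with a P of 0.00899. With normexp correction, no background correction or the authors' values Vldlr did not pass, and it missed the limit without LFD replicate 1, 2 or 5, with P of 0.0141 to 0.0151. Lpl missed it in 16 of 24 such fits, with P up to 0.0298 without LFD replicate 4. Gpat3, an acyltransferase of triglyceride synthesis outside this list, rose 1.97-fold, from an LFD median of 8.48 to fiber medians of 9.65 and 9.29, with a limma P of 0.000811. The P of Vldlr was 0.0125 without the arrays that carried acinar or muscle markers. Pparg had 0.55 with a P of 0.00253 and passed with 0.62 without LFD replicate 4. With the adipocyte arrays left out too, that of Lpl was 0.0151 and that of Gpat3 0.0144.

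The regions before the start of transcription are shown for lipogenic genes that fell and hold one of the motifs searched, and further on for clock genes. They are RefSeq promoters of assembly GRCm38.p6, 300 bases around the start, 5′ to 3′ on the strand of the gene, and the first start listed was taken for each gene. Searched on both strands were CACGTG, the E-box core bound by clock factors, TCACNCCAC, a sterol response element-like motif, TTATGTAA, the D-box read by Tef and its relatives, and CCAAT, read by NF-Y. None of these motifs overlaps another in the sequences shown. Capitals mark matches on either strand.
Elovl5, chr9:77917115-77917414, plus strand, with CACGTG and 2 copies of the reverse of CCAAT: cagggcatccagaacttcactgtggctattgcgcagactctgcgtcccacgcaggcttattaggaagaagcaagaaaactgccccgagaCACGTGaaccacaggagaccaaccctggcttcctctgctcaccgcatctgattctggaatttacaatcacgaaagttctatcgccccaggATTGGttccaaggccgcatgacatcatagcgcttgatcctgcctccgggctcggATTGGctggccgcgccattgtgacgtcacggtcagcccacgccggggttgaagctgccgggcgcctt
Pnpla3, chr15:84167566-84167865, plus strand, with the reverse of CCAAT: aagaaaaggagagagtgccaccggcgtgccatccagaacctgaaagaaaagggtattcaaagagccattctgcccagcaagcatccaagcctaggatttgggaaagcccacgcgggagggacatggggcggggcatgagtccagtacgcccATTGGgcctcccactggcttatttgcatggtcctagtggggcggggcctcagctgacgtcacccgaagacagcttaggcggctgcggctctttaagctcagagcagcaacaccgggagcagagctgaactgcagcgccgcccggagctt
Acacb, chr5:114165268-114165567, plus strand, with CCAAT: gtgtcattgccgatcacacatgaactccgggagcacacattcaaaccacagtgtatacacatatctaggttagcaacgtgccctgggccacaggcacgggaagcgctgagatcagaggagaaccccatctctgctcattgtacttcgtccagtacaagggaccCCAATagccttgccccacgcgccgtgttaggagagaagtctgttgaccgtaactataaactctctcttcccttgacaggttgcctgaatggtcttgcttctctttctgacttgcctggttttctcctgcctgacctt
A promoter was listed for 15 of the 20 lipogenic genes. CCAAT was present in 9 of the 15 (60%) and in 37.9% of 27025 promoters, CACGTG in 2 (13.3%) against 7.24%, and TCACNCCAC in 1 (6.67%) against 1.22%. Of the 9 with CCAAT, Elovl5, Pnpla3 and Acacb passed the limits, while Gpam, Acly, Fasn, Srebf1, Slc25a1 and Thrsp did not. CACGTG was in Elovl5 and Slc25a1 and TCACNCCAC in Mlxipl, and of these Elovl5 alone passed. The promoters of Acaca, Me1, Elovl6 and Scd3 held none of these letters in this window. In the list of cholesterol synthesis and uptake, where no gene passed the limits, CCAAT was in 15 of 16 promoters (93.8%) and CACGTG in 18.8%. Both shares were above those of the lipogenic list, and a link between motif and difference was not tested.

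Of the genes that were higher, Cyp2b10, a P450 and the classic target of the receptor CAR, rose. It was above background on 4 of 6 LFD arrays, between 3.46 and 7.35 with a median of 5.15, and on all 12 fiber arrays. HFD + inulin arrays lay between 7.21 and 8.99 with a median of 8.29, and HFD + inul PB arrays between 5.72 and 9.02 with a median of 8. Of the fiber arrays, 9 lay above the highest LFD array. The difference was 2.69 ± 0.6, 6.47-fold, with a limma P of 0.000177, an adjusted P of 0.116 and an exact permutation P of 0.000323. Within slides it was 3.81, 1.09 and 3.18, and with normexp correction 1.52. In the list of drug-metabolising P450s and their receptors 3 of 26 genes rose, against 0.321% of all genes, and none fell, with a median of 0.24. The others were Cyp1a1, a target of the aryl hydrocarbon receptor, and Cyp2a4, a steroid hydroxylase. Cyp1a1 was close to background, with 1 of 6 LFD arrays above it, and its difference was 0.96 with a P of 0.000789. With normexp correction, no background correction or the authors' values it did not pass. Cyp2a4 had a difference of 0.93 with a P of 0.00389, and 0.0182 without LFD replicate 4. Without the arrays with acinar or muscle markers it was 0.68 with a P of 0.0339. With the adipocyte arrays left out too, Cyp1a1 had a P of 0.0109 and Cyp2b10 alone of the list's 3 passed. The Cyp2a4 probe may also bind the near-identical Cyp2a5, which had no named probe here. Nr1i3, the gene of CAR, had a difference of 0.55 with a P of 0.0052, below the fold limit.

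Abcc3, which exports conjugated bile acids and drug conjugates into blood, rose by 0.77 ± 0.12, 1.7-fold, with an adjusted limma P of 0.0209. LFD arrays lay between 12.15 and 12.98 with a median of 12.46, HFD + inulin arrays between 12.93 and 13.69 with a median of 13.46, and HFD + inul PB arrays between 12.87 and 13.36 with a median of 13.11. Of the fiber arrays, 10 lay above every LFD array. Dio1, the deiodinase that activates thyroid hormone, rose by 0.9 ± 0.17, 1.86-fold, with an adjusted P of 0.046. It ran from 11.53 to 12.53 on LFD, from 12.24 to 13.32 on HFD + inulin and from 12.78 to 13.41 on HFD + inul PB, and 11 of 12 fiber arrays lay above LFD. A second Dio1 probe had 0.86 and the third 0.85. Dio1 had 0.58, under the fold limit, without the arrays that carried acinar, muscle or adipocyte markers.

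Dop1b, a protein of endosome trafficking, had the lowest adjusted P of a named gene, 0.00175. Its signals were 10.39 to 10.99 on LFD, 11.56 to 11.95 on HFD + inulin and 11.24 to 11.78 on HFD + inul PB, with medians of 10.71, 11.78 and 11.32, and LFD did not overlap with either fiber diet. The difference was 0.89 ± 0.11, 1.85-fold, and it was 1.03, 0.65 and 0.98 within slides. A second, dimmer Dop1b probe had 0.35 with a P of 0.0752. Aatk, a kinase first described in apoptosis, rose 2.23-fold from an LFD median of 8.45 to medians of 9.68 and 9.38, with an adjusted P of 0.0354. Pcp4l1, a small calmodulin-binding protein, rose 2.9-fold with an adjusted P of 0.0481. LFD arrays of Pcp4l1 ranged from 6.49 to 9.28, those of HFD + inulin from 9.4 to 9.68 and those of HFD + inul PB from 8.81 to 10.07, and 9 fiber arrays lay above LFD. Kcnk10, a potassium channel, rose 2.12-fold and Nrep 2.11-fold, with limma P of 7.6e-05 and 0.00022. Slc16a5, a monocarboxylate transporter family member, rose 2.35-fold with a P of 0.00458, and 0.0232 and 0.0105 without LFD replicate 5 or 6. Pcsk4, a proprotein convertase, rose 2-fold with a P of 0.00345, and 0.0128 and 0.0141 without LFD replicate 1 or 4. Pcsk4 had 0.76 with a P of 0.0311 without the arrays that carried acinar or muscle markers. With the adipocyte arrays left out too, Nrep had a P of 0.0125 and Slc16a5 of 0.0144.

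**Figure D2:**
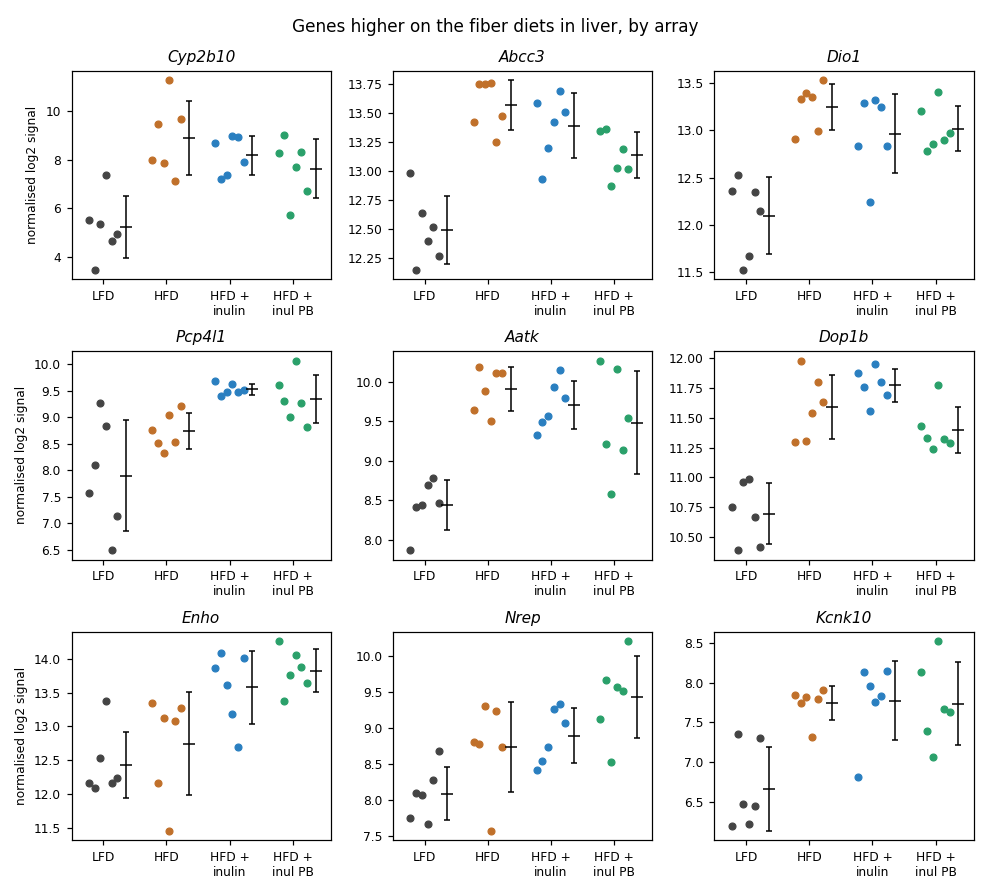
Normalised log2 signal (vertical axes) of 9 genes higher on the fiber diets in each liver array, by diet, with the mean and SD of the 6 arrays at the right of each group. Dop1b shows no overlap between LFD and the fiber diets. In Enho the highest HFD array, at 13.35, is below 10 of the 12 fiber arrays.

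A few further genes passed with adjustment at small folds. Scrn2 rose by 0.27 ± 0.04, Pipox, which breaks down pipecolate and sarcosine, by 0.3 ± 0.06 and Tut4, a terminal uridylyltransferase of RNA, by 0.51 ± 0.09, with adjusted limma P of 0.0224, 0.046 and 0.0354. Cotl1, an actin-binding protein, fell by 0.39 ± 0.07 with an adjusted P of 0.0333, and all 12 fiber arrays, between 11.48 and 11.84, lay below the LFD range of 11.9 to 12.23. Pik3c2g, a liver-rich lipid kinase, fell 2.53-fold with an adjusted P of 0.048 on 1 probe, while its dimmer probe had -0.13 with a P of 0.616. Its LFD arrays ranged widely, from 7.19 to 9.15, and its fiber arrays from 6.34 to 7.43. Lepr, the leptin receptor, fell 2.86-fold on the probe that passed, from 7.05 to 8.65 on LFD to 5.45 to 7.15 on the fiber diets, with an adjusted P of 0.0401. Another Lepr probe had -1.6 with a limma P of 6.86e-05 and an adjusted P of 0.0721. The brightest of the 4 Lepr probes had a difference of 0.01 and the dimmest of 0.14, so the fall was not shared by all probes. After adjustment Scrn2 missed 0.05 without LFD replicate 1 or 6 or HFD + inul PB replicate 5, Cotl1 in 9, Tut4 in 16 and Pipox in 20 of the 24 fits that left out 1 array. Their limma P in those fits stayed at or below 0.000112. None of these 4 passed with adjustment without the arrays that carried acinar or muscle markers. Genes with larger folds were followed in such fits by fold and limma P only, not by adjusted P. With 1 array left out their limma P reached 6.66e-05 for G6pdx, 0.000115 for Fabp5, 0.000123 for Dio1, 0.000161 for Pik3c2g and 0.000167 for Pcp4l1. Without LFD replicate 6 only 7 probes passed with adjustment, so not all of the 33 adjusted calls held there. Of the 33 probes that passed with adjustment, 18 carried the symbol of 17 genes and 15 had no match. Of the latter 14 were lower, and 7 of these were well above background on no fiber array.

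Among the hepatokines, proteins that the liver releases to act on other organs, Enho rose and Fst and Igfbp1 fell, 3 of 18 genes, and the list median was -0.02. Of all genes 0.321% were higher and 0.613% lower. Enho encodes adropin, a secreted peptide linked to energy balance. LFD arrays lay between 12.09 and 13.38 with a median of 12.21, HFD + inulin arrays between 12.7 and 14.09 with a median of 13.74, and HFD + inul PB arrays between 13.37 and 14.26 with a median of 13.82. Of the fiber arrays, 9 lay above the highest LFD array, replicate 4. The difference was 1.27 ± 0.27, 2.41-fold, with a limma P of 0.000101, an adjusted P of 0.0927 and an exact permutation P of 0.000269, and 1.77, 0.69 and 1.35 within slides. Fst, follistatin, which binds activins, fell 2.05-fold from an LFD median of 9.87 to 8.87 and 8.71, with a P of 0.000635. Igfbp1, an insulin-repressed binding protein of insulin-like growth factors, fell 3.23-fold from an LFD median of 14.09 to 12.7 and 12.78, with a P of 0.00315, and 0.0146 without LFD replicate 4. Without the arrays with acinar or muscle markers it had -1.46 with a P of 0.0165. Of 11 genes of the growth hormone axis and male-biased expression, Elovl3 and Cyp4a12a fell, against 0.613% of all genes, and the list median was -0.1. Elovl3, an elongase of very long fatty acids, had a difference of -1.56 with a P of 0.000694, and Cyp4a12a, an androgen-dependent fatty acid hydroxylase, of -0.89 with a P of 0.000202. Elovl3 had -1.3 with a P of 0.0202 without the arrays that carried acinar, muscle or adipocyte markers.

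Circadian clock genes differed in both directions. The clock is a loop in which Arntl (BMAL1) with CLOCK drives its own repressors and the output factors Dbp, Tef and Hlf, and levels swing over the day. Of 18 genes, Usp2 and Tef rose, Arntl and Nfil3 fell, and the list median was 0.51. Of all genes 0.321% were higher and 0.613% lower. Usp2, a deubiquitinase under clock control, ranged from 6.23 to 10.06 on LFD with a median of 9.47, from 7.89 to 11.93 on HFD + inulin with a median of 10.84 and from 9.64 to 12.19 on HFD + inul PB with a median of 11.13. Its difference was 2.08 ± 0.72 with a limma P of 0.00848. Arntl ranged from 7.83 to 10.05 on LFD with a median of 8.07, from 5.3 to 8.99 on HFD + inulin with a median of 7.01 and from 4.83 to 8.22 on HFD + inul PB with a median of 6.48. Its difference was -1.77 ± 0.53 with a P of 0.00329. Tef rose by 0.89 with a P of 0.00252, and Nfil3, the repressor that competes with Tef, fell by 0.75 with a P of 0.00901. Dbp had a difference of 1.42 with a P of 0.0204, Hlf of 0.58 with 0.00255, just under the fold limit, and Per3 of 1.16 with 0.0506. A block on replicate number, which is also the slide and row of the array, let Dbp pass with a P of 0.00529 and Nfil3 miss the limit with 0.0186, so that 4 clock genes were higher and 1 lower. Without background correction or with the authors' values Hlf and Per3 passed too.

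The spread within each diet was wide in these genes. Replicate 1 had the highest Arntl of its diet on LFD (10.05), HFD (9.23) and HFD + inulin (8.99), and the lowest Usp2 of its diet on all 4 diets, from 6.23 on LFD to 9.64 on HFD + inul PB. LFD replicate 4 stood beside LFD replicate 1, with Arntl at 9.57 and Usp2 at 7.13. The time of day at which each mouse was killed is not given in the sources used here, so its part in these differences was not tested. Without LFD replicate 1 the P of Arntl was 0.0145, of Tef 0.0119, of Usp2 0.038 and of Nfil3 0.0259, and without LFD replicate 4 they were 0.0119, 0.0127, 0.0298 and 0.0404. With either of these arrays left out no clock gene passed. Without HFD + inulin replicate 1, in turn, 6 clock genes were higher, and without all 4 arrays numbered 1 there were 3 higher and 1 lower. Usp2 missed the limit in 13 and Nfil3 in 17 of the 24 fits that left out 1 array. Without the 3 arrays with acinar or muscle markers, LFD replicate 4 among them, none passed.

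**Figure D3:**
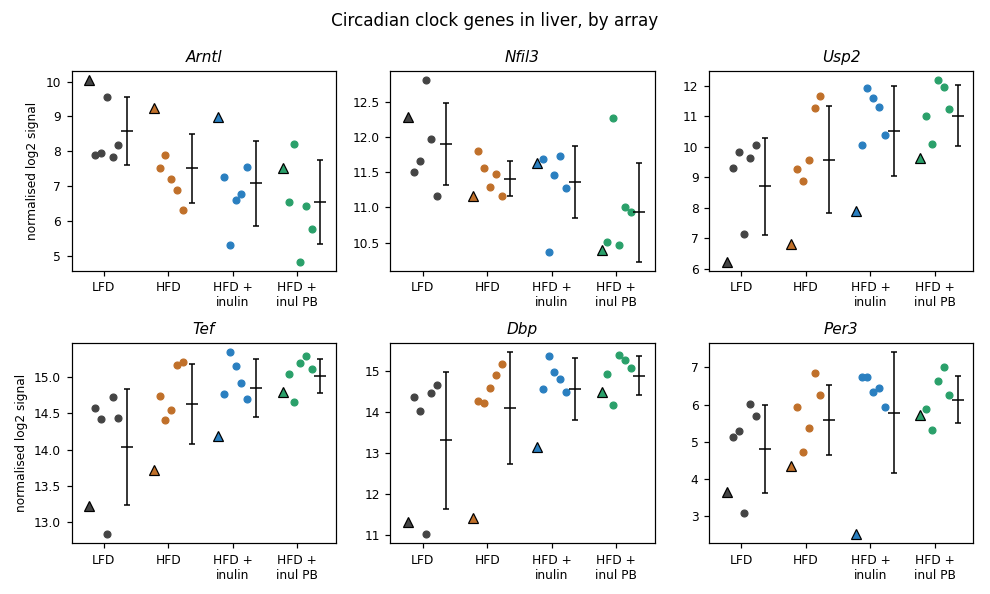
Normalised log2 signal (vertical axes) of 6 clock genes in each liver array, by diet, with the mean and SD of the 6 arrays at the right of each group. Triangles mark replicate 1 of each diet, which is lowest in Usp2 on every diet, and the low LFD circle in Usp2, Tef, Dbp and Per3 is LFD replicate 4.

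Promoters of 2 of the clock genes past the limits are shown for the same motifs, under the same marking. That of Tef holds the E-box core and 2 copies of the reverse of CCAAT, and that of Arntl holds 8 copies of the latter.
Tef, chr15:81802423-81802722, plus strand: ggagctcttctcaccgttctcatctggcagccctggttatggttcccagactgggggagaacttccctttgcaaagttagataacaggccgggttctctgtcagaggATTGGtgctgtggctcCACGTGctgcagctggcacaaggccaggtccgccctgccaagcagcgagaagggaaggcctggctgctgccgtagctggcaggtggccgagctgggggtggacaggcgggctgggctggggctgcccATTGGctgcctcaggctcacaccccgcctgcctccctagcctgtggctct
Arntl, chr7:113207215-113207514, plus strand: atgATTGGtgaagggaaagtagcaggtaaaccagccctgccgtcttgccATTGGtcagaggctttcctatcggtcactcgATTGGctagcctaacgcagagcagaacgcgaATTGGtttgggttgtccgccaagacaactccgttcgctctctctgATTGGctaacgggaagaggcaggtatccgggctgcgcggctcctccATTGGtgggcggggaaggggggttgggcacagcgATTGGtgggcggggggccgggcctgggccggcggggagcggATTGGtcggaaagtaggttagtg
The E-box core was found in 5 of 16 clock promoters (31.2%), those of Tef, Bhlhe41, Cry1, Ciart and Per1, against 7.24% of all promoters. Of these genes Tef alone passed the limits in the fit of all arrays. The D-box was found in 1, that of Per3 (6.25%), against 0.955%, and CCAAT in 11 (68.8%) against 37.9%. The share of CCAAT in the cholesterol list, which held no gene past the limits, was larger (93.8%). The Usp2 promoter held none of the motifs.

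Acute phase genes, whose products the liver secretes in inflammation, mostly had negative differences that stayed under the fold limit. Of 25 genes 18 were below 0, the median was -0.15, and 6 had a limma P under 0.01. Among all genes 51.1% were above 0, and 1166 of 55681 probes had a limma P under 0.01. The latter is over all probes, dim ones and those without a symbol included. All 25 acute phase genes were well above background on all 24 arrays, so the 2 counts are of unlike sets. Saa4, the constitutive serum amyloid A of lipoproteins, rose by 0.59 ± 0.12 with a P of 4.3e-05, and 11 of 12 fiber arrays lay above LFD. Its fold of 1.51 fell under the limit without HFD + inulin replicate 4, HFD + inul PB replicate 1 or 4 or LFD replicate 1 or 4, and without the arrays with acinar or muscle markers, where its difference was 0.49. Fga, a fibrinogen chain, fell by 0.44 ± 0.08 with an adjusted P of 0.0354, from 14.71 to 15.02 on LFD to 14.16 to 14.79 on the fiber diets, and missed 0.05 after adjustment in 13 of 24 such fits and without the arrays that carried acinar or muscle markers. Orm1, an acid glycoprotein, had a difference of -0.46 with a P of 0.00044. Saa1 and Saa2, the inducible forms, had differences of -0.25 and -0.27 with P of 0.318 and 0.349, and their fiber medians, between 12.31 and 12.51, lay below the HFD medians of 13.32 and 13.46.

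Interferon response genes had negative differences in 14 of 15 members with a median of -0.27, and none passed in the 24-array fit. Over all genes 51.1% of the differences were positive. Cxcl10, a chemokine for T cells, had -0.78 with a P of 0.0152 and Gbp2, a guanylate-binding protein, -0.75 with a P of 0.017. Fitted on the 18 arrays alone both passed, with P of 0.0099 and 0.00376. Cxcl10 also passed without background correction, with the authors' values and without LFD replicate 6, where it had -0.99 with a P of 0.0031. Cxcl9, a chemokine of the same kind outside this list, fell 2.45-fold, from 8.79 to 11.28 on LFD to 7.83 to 9.45 on HFD + inulin and 8.13 to 8.98 on HFD + inul PB, with a P of 0.0028. Its P was 0.0115 without LFD replicate 1 and 0.014 without LFD replicate 2, and its differences within slides were -2.57, -0.74 and -0.57. Of 10 lymphocyte markers 1 fell, against 0.613% of all genes. This was Cd3g, a chain of the T cell receptor complex, with a difference of -1.02 and a limma P of 0.000302. It was above background on 9 of 12 fiber arrays, and did not pass with normexp correction, without background correction or with the authors' values. The log2 sums of lymphocyte markers overlapped, at 14.57 to 15.47 on LFD, 14.41 to 15.45 on HFD + inulin and 14.17 to 15.3 on HFD + inul PB, and 2 of the 10 markers were never above background.

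Jchain, the joining chain of antibodies, fell 2.68-fold with a P of 0.00317. The highest LFD arrays were replicates 3 and 4, at 10.27 and 10.13, against 7.51 to 8.63 on the other LFD arrays, and without replicate 3 or 4 the P was 0.0157 or 0.0152. Bhlha15, a transcription factor of secretory cells such as acinar and plasma cells, fell with a P of 0.00014. It was above background on 3 of 12 fiber arrays, and its difference was -2.55 on the processed signal and -1.09 with normexp correction. Its highest LFD arrays were again replicates 3 and 4, at 8.81 and 8.61. Within slides its difference was -0.43, -5.08 and -2.15, and it was -1.57 with a P of 0.0177 without the arrays that carry acinar, muscle or adipocyte markers. Ccdc69 fell from 5.53 to 7.12 on LFD to 3.42 to 6.12 on the fiber diets and was above background on 1 of 12 fiber arrays, with a difference of -1.83, or -0.65 with normexp correction. Atp2b2, a plasma membrane calcium pump, fell 2.52-fold with a P of 0.00145, and 10 fiber arrays lay below LFD.

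Of the remaining cell type markers none passed. The macrophage markers Timd4, at -0.57 with a limma P of 0.00565, and Mpeg1, at -0.58 with 0.00979, lay just under the fold limit. A dimmer Mpeg1 probe had -0.24 with a limma P of 0.116. Macrophage and Kupffer cell markers were below 0 in 15 of 16 with a median of -0.19, while 51.1% of all genes were above 0. Sinusoidal endothelial markers had a median of -0.1 over 9, stellate cell and matrix markers of -0.16 over 12 and erythroid markers of -0.28 over 5. All 9 endothelial, 10 of 12 stellate and 8 of 10 lymphocyte markers were below 0 too, so this was not particular to macrophages. Of hepatocyte markers 6 of 10 and of cholangiocyte markers 2 of 6 were below 0. Cholangiocyte markers had a median of 0.12 over 6, hepatocyte markers of -0.01 over 10 and intestinal markers of 0.16 over 5. Acinar markers had a median of -0.8 over 7, adipocyte markers of -0.83 over 5 and muscle markers of 0.64 over 4, with their highest levels on the single arrays given above. Their part in other differences was tested only by leaving those arrays out.

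Several metabolic lists held no gene past the limits in the fit of all arrays. They were cholesterol synthesis and uptake (24 genes, median 0.18), fatty acid oxidation and PPARA targets (31, median 0.15), bile acid synthesis and transport (18, median -0.02), amino acid catabolism and the urea cycle (16, median 0.16), glutathione and oxidative stress (22, median 0.04), and short-chain fatty acid handling and ketone bodies (16, median 0.1). Cell division (11, median -0.06) and the unfolded protein and amino acid stress response (14, median -0.17) held none either. Differences were above 0 in 20 of 24 cholesterol genes and 25 of 31 fatty acid oxidation genes, against 51.1% of all genes. They were above 0 in 13 of 16 amino acid, 12 of 16 short-chain fatty acid, 14 of 22 glutathione and 8 of 18 bile acid genes. In cell division 3 of 11 and in the stress response 3 of 14 were above 0. In the short-chain fatty acid list, Acsm5 and Acsm1, medium-chain acyl-CoA synthetases, had differences of 0.33 and 0.2 with limma P of 0.000299 and 0.00241, under the fold limit. Abcg5, a subunit of the sterol exporter of bile, had a difference of -0.52 with a P of 0.00153. Without the arrays with acinar or muscle markers it was -0.63, past the fold limit. Single genes of these lists passed with 1 array left out. Mvk (0.83, P 0.00125) and Msmo1 (0.91, P 0.00771), of cholesterol synthesis, did so without HFD + inul PB replicate 3. Aldh3a2 (0.59, P 0.000895) and Abcg8 (-0.59, P 0.00181) did so without LFD replicate 3, and Gsta4 (0.61, P 0.002) without LFD replicate 4.

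**Figure D4:**
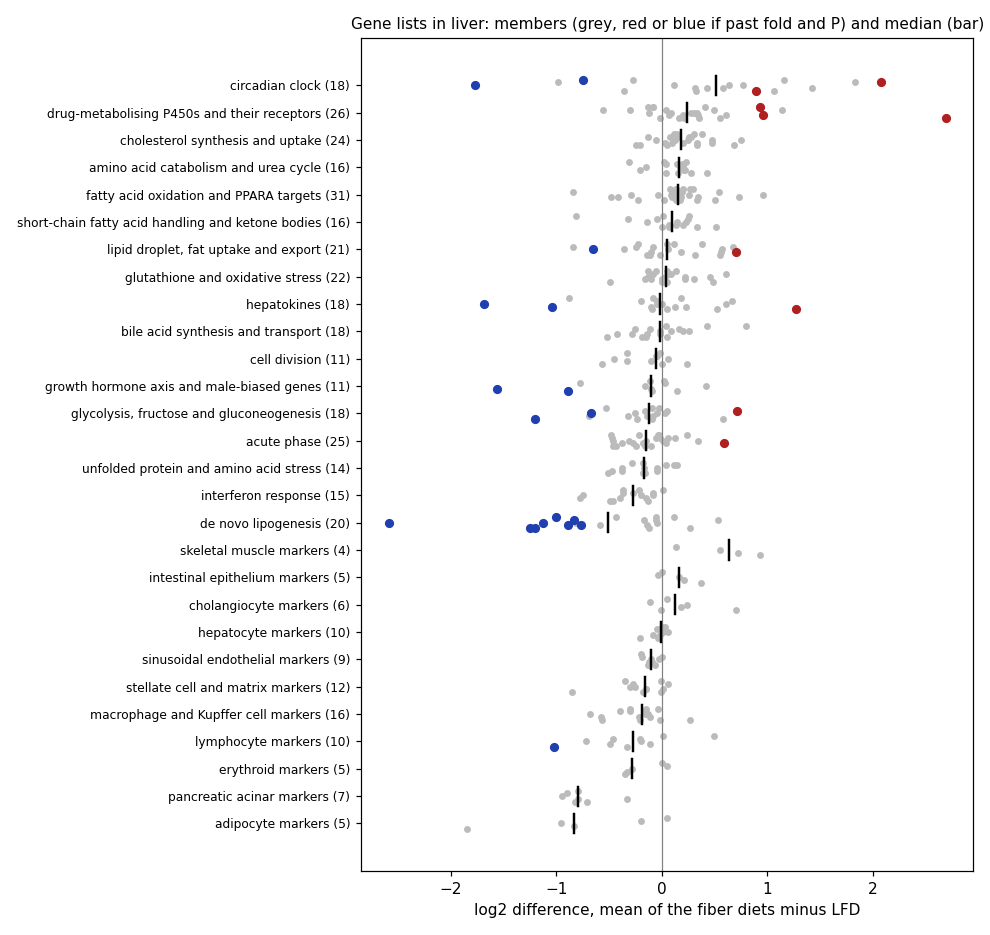
Log2 difference between the mean of the fiber diets and LFD (horizontal axis) for each measured member of 28 gene lists, with the number of members in brackets. Black bars are list medians and coloured points passed the fold and P limits; the 8 blue points of de novo lipogenesis lie between -2.59 and -0.77.

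Each fiber diet was also set against the same LFD arrays. HFD + inulin differed in 365 probes (0.656%), 6 of them after adjustment, and HFD + inul PB in 377 (0.677%), 2 of them after adjustment. Without HFD + inul PB replicate 3 the latter was 618. With normexp correction, no background correction and the authors' values the counts were 130, 160 and 161 for HFD + inulin and 142, 175 and 175 for HFD + inul PB. On every slide HFD + inulin arrays lay in other columns than LFD arrays, so array column and diet cannot be told apart there, while HFD + inul PB and LFD shared columns. The direct comparison of the fiber diets is bound to the array column in the same way. With slide, row and column as blocks HFD + inul PB differed from LFD in 417 probes. For inulin and its esters in that order, the differences from LFD were -2.46 and -2.71 for Pnpla3, -1.13 and -1.27 for Scd1, -1.12 and -1.27 for G6pdx, 2.97 and 2.42 for Cyp2b10, and 1.15 and 1.39 for Enho.

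Free inulin and inulin esterified with propionate and butyrate were compared directly, at the same share of the diet and after the same time, as a single pair. They differed in 110 probes by fold and P (0.198%), or 7 to 16 with another background treatment or the authors' values, and in none after adjustment with limma, while 1275 probes had an unadjusted P under 0.05. Without HFD + inul PB replicate 3 there were 216. Over the 20887 genes 2.21% had such a P. Of the 195 genes past the limits against LFD, 8 (4.1%) had it. The direct difference of those 195 genes had a median size of 0.16, against 0.84 for their difference from LFD. The genes were chosen by the latter, which had to exceed 1.5-fold, so the 2 sizes cannot be weighed against each other. For the direct difference the median half-width of the 95% interval was 0.59. A difference of about that size between the fiber diets could thus be missed in a typical gene. A P that misses the limit does not show that the diets acted alike.

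In single genes the ester diet minus the inulin diet was -0.14 for Scd1 (95% interval -0.73 to 0.45), -0.12 for Scd3 (-0.91 to 0.67), -0.15 for G6pdx (-0.65 to 0.36), 0.62 for Fabp5 (-0.46 to 1.7), -0.55 for Cyp2b10 (-1.98 to 0.87) and 0.25 for Enho (-0.39 to 0.89). The intervals hold 0 and also hold differences over 1.5-fold. Cyp1a1 was higher on HFD + inul PB by 0.9 (0.31 to 1.48), at 5.51 to 7.18 against an overlapping 5.24 to 5.71 on HFD + inulin, with an unadjusted limma P of 0.00462. Dop1b was lower by 0.37 on the log2 scale, a difference of -0.37 (-0.64 to -0.11), with a P of 0.00772. Neither passed with adjustment.

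**Figure D5:**
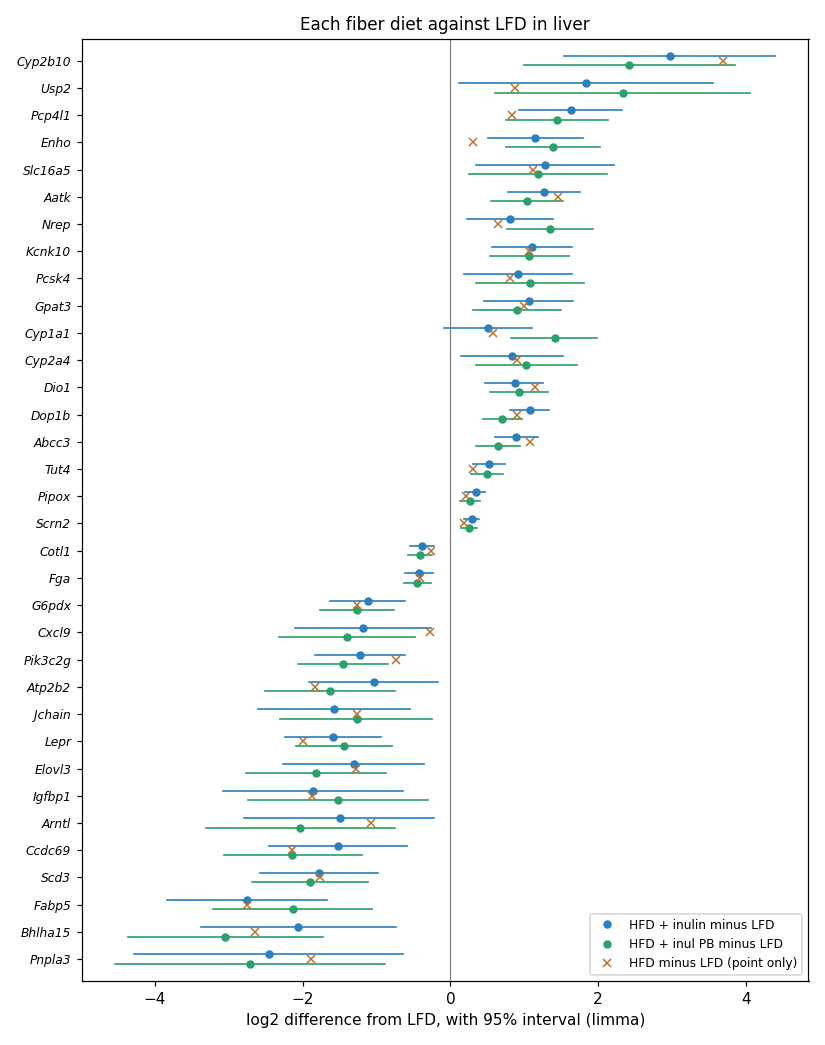
Log2 difference from LFD (horizontal axis) with its 95% interval for HFD + inulin (blue) and HFD + inul PB (green), for the named genes with the largest differences or an adjusted P under 0.05, and the HFD difference as a cross. The blue and green intervals overlap in every gene; the cross of Enho, at 0.31, lies left of both points.

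HFD without added fiber gives the context of these differences, with the caution that it was compared with the same LFD arrays. HFD arrays lay in the columns of the HFD + inulin arrays and never in those of LFD, so array column and diet cannot be told apart in HFD minus LFD either. Its differences from LFD were -0.99 for Scd1, -1.76 for Scd3, -1.26 for G6pdx, -2.75 for Fabp5, 3.69 for Cyp2b10, 1.08 for Abcc3, 1.15 for Dio1 and 0.9 for Dop1b. The fiber diets and HFD differed in 173 probes (0.311%) by fold and P and in none after adjustment with limma, with 2141 probes at an unadjusted P under 0.05. The count of 173 was 46 with normexp correction, 58 without background correction and 60 with the authors' values. Fiber minus HFD was -0.21 for Scd1 with a P of 0.395, 0.07 for G6pdx with 0.749, -1 for Cyp2b10 with 0.109 and -0.31 for Abcc3 with 0.0213. Usp2 rose by 2.08 on the fiber diets against LFD and by 0.88 on HFD against LFD. Enho had 0.96 between the fiber diets and HFD, with a limma P of 0.0017. Pcp4l1 had 0.7 with a P of 0.0254, Cxcl9 -1.02 with 0.0142, Cyp4a12a -0.53 with 0.0148, Saa1 -0.9 with 0.00121 and Saa2 -1.01 with 0.00169. Pik3c2g had -0.6 with 0.0263.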

How the data were processed

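Agilent Feature Extraction files, deposited by the authors for each array, list spot intensity on a linear scale; the processed signal is background-subtracted. The authors also deposited processed log2 values, cyclic loess normalised, used as an alternative. These followed the log2 median spot signal (r of 0.9992 to 1).

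Control and outlier spots were left out, log2 processed signals normalised by cyclic loess over the 24 liver arrays (span 0.7, 3 iterations), and spots of one probe averaged. Limma 3.58.1 in R 4.3.3 fitted the 4 diets in one model, with Benjamini-Hochberg adjustment over 55681 probes. Two-sided exact permutation tests compared 12 arrays with 6. The fit was tested on simulated data. The number of arrays limits the precision.

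Transcript accessions gave 27509 probes a symbol (RefSeq, GRCm38.p6, for names and promoters). A gene is given by its brightest probe. A named gene with an adjusted call only on a dimmer probe, as in Lepr, is given by that probe. Named were the 12 highest and 12 lowest known genes past fold and P and above background in LFD or both fiber diets, known genes with an adjusted P under 0.05, list members past the limits or with the lowest P, and Enho, Saa1 and Saa2. Dbp, Hlf, Per3, Fasn, Acly and Srebf1, and list members named beside these, were added after their values were seen. The members and lists were chosen with earlier results of these data known.

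Samples were grouped by labels. P-values measure the spread between these livers. Alternatives were other scalings, background corrections, blocks and left-out arrays. Normexp used the median spot signal, since the files give no mean. Probes without a symbol are not analysed here by name.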

Additional observations from a re-analysis of the deposited data

Results flagged for a closer look

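In 12 of 159 groups of 6 arrays (the genes named for their calls, on HFD + inulin, HFD + inul PB and LFD), one array stood apart, with a gap to its neighbour, as a share of the range of the group, above Dixon's critical value. Chance gives about 1 in 20. On HFD + inul PB, replicate 6 was highest in Acaca (14.29, share of the range 0.698) and Elovl6 (14.3, 0.648), replicate 3 was lowest in Cyp2a4 (14.63, 0.666) and highest in Nfil3 (12.28, 0.68), and replicate 4 was highest in Dop1b (11.78, 0.646). On HFD + inulin, replicate 1 was lowest in Kcnk10 (6.82, 0.706), replicate 2 lowest in Txnip (10.85, 0.631), replicate 3 lowest in Nfil3 (10.37, 0.66) and replicate 4 highest in Saa4 (13.86, 0.729). On LFD, replicate 4 was highest in Enho (13.38, 0.649) and Scd2 (11.43, 0.699), and replicate 3 lowest in Scd3 (10.89, 0.668). LFD replicate 4 is the array with the highest acinar marker signal (17.04). Without it Scd2 had a difference of -0.48 with a limma P of 0.0123.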

How the results depend on the processing

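Counts by fold and P depended on the background treatment. With normexp correction, no background correction, the authors' processed values and only probes well above background, they were 136, 179, 177 and 230 for both fiber diets together against LFD, 130, 160, 161 and 183 for HFD + inulin against LFD, 142, 175, 175 and 226 for HFD + inul PB against LFD, 7, 16, 16 and 19 between the fiber diets, and 46, 58, 60 and 71 for the fiber diets against HFD. The other scalings and blocks kept these counts within 1.5 times. Leaving out 1 array gave 393 to 514, 326 to 422, 326 to 618, 101 to 216 and 163 to 246 in the same order. Probes with an adjusted P under 0.05 for the main contrast were 14 with 75th percentile scaling, 13 with only the 18 arrays, 55 with only probes well above background, and 7 to 94 leaving out 1 array. Chosen after seeing the data, leaving out arrays with acinar or muscle markers gave 9, those with adipocyte markers too 7, and the 4 arrays numbered 1 5. The replicate number as a block, the replicate block, gave 511 probes by fold and P and 19 after adjustment. Deviations of same-numbered arrays of 2 diets correlated between -0.252 and 0.516, and 4 of 18 arrays correlated best with their own number, so the numbers, each 1 slide and row, were not taken as pairs of mice. Among clock genes Dbp gained and Nfil3 lost its call under the block. Of 46 named genes past fold and P, 18 missed the limits without arrays with acinar or muscle markers, 23 with adipocyte arrays left out too and 14 without the arrays numbered 1, against 0 to 3 under each scaling, background, block or prior setting, and none reversed. Each of these settings leaves fewer arrays, and differences changed to unlike degrees. Without the arrays with acinar or muscle markers Scd2 went from -0.89 to -0.53 and Nfil3 from -0.75 to -0.52. Elovl6 went from -1.13 to -1.09 and Pnpla3 from -2.59 to -2.53. Why calls were lost was not tested.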
